A study of Homo sapiens with 4 samples.

Results

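The 41 genes described here encode the integrins and the proteins that gather on their cytoplasmic side in focal adhesions. They were taken by name from a list that was chosen with earlier results of these data known. It held 20 integrin chains (12 alpha and 8 beta) and 21 plaque proteins, and all of them were found among the 23577 usable genes of the expression table. The list was applied to RKN, SKLMS1, SKN and SKUT1, established human leiomyosarcoma lines that were left untreated, each with 1 poly(A) RNA-seq library. All lines shared the same serum-containing medium, and no genotype or passage was given in the labels. With 1 library per line there was no replicate error, so every difference is a size without a test.

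Integrins are receptors made of an alpha and a beta chain, and the alpha chain largely sets which matrix protein is bound. Collagens, laminins and proteins with the RGD motif, such as fibronectin and vitronectin, are the main ligands. On the inside, talins and kindlins bind the beta tail and switch the receptor on, the complex of ILK, PINCH and parvin couples it to actin, the kinases FAK (PTK2) and SRC signal through the scaffolds paxillin (PXN) and p130Cas (BCAR1), and vinculin, zyxin, tensins, filamins and alpha-actinins tie it to actin filaments. Smooth muscle cells anchor their contractile apparatus through such plaques.

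Levels are given as FPKM, a value per kilobase of transcript, so that levels of different genes can be set side by side, and differences as log2(FPKM + 1), which understates those of low genes. A gene was kept for counting when it reached an FPKM of 1 in any line. This held for 13713 genes in all and for 39 of the 41 members. ITGA9 and ITGB7 were left out, with at most 0.782 and 0.323. The depth estimated from low values was 24400000 to 33600000 reads per library, so that a single read on a 5 kb transcript gave an FPKM between 0.00620 and 0.00854. On a 2 kb transcript a single read gave between 0.0165 and 0.0228. An exact 0 can be a failed estimate, since the ribosomal protein gene RPS28 was listed at 0 in SKUT1, and an exact 0 is reported only as listed. RPS28 was also only 0.370 in SKLMS1, beside 146 in RKN and 211 in SKN, so other low values can be affected too. Of 8 smooth muscle markers, MYH11 and DES reached at most 1.15 and 1.10 in any line, while ACTA2 ran from 1.37 in SKN to 1085 in SKUT1. TAGLN, CALD1 and CNN1 also peaked in SKUT1, with levels of 3816, 1246 and 86.4 there. Their lowest values were 5.82 (TAGLN, SKN), 37.1 (CALD1, RKN) and 0.228 (CNN1, SKN). SMTN stayed between 22.9 and 45.6. With a gap of at least 2-fold, 5 of the 8 were highest in SKUT1 (9.96% of all kept genes) and 3 lowest in SKN (1.81%). A marker that was kept only through its highest line had to be highest there, so these counts are a description. Among 7 leukocyte markers PTPRC was at most 0.213 and CD3E at most 0.0937, while CD68, a lysosomal protein of macrophages, was 75.3 in SKUT1 and 21.9 in SKLMS1, and CORO1A 12.3 in RKN. Of 6 endothelial markers PECAM1 was at most 0.115 and CDH5 at most 0.0702, while the receptor gene TEK was 39.6 in SKUT1 and KDR 4.91 in SKN. The part of these markers in the levels of the adhesion genes was not tested. The epithelial keratin KRT8 was 268 in SKLMS1 and 265 in SKN, with EPCAM at most 1.80 in every line.

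The adhesion genes were more often high in SKUT1 and low in RKN than genes at large. SKUT1 was the highest line for 20 of the 39 kept members and RKN the lowest for 27, against 30.8% and 28.8% of all kept genes. Among the 20, ITGA8 and ITGA10 passed the low-value filter only through SKUT1, and the members were chosen with earlier results of these data known. The counts, and the medians that follow, are therefore a description. Set against the mean of the other 3 lines, the median difference was 1.12 in SKUT1 and -1.42 in RKN on the log2 scale, with -0.03 and -0.04 over all genes. SKLMS1 and SKN lay near the middle, with medians of -0.18 and -0.15 beside -0.06 and -0.05. In bulk RNA, fewer cells that express a gene and less of its RNA per cell cannot be told apart. Rescaling the columns to TPM moved the typical gene by 0.28 in RKN and by -0.29 in SKUT1, and on that scale the members' medians were -1.46 and 0.80 beside 0.24 and -0.31 for all genes.

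Members were also counted where a line had a gap of at least 2-fold to the next line. By that rule 16 members were highest in SKUT1, where 9.96% of all kept genes were, and 7 were highest in SKN (background 3.75%). SKLMS1 alone was highest for ITGB4 and ITGB6 (background 3.95%), and no member was highest in RKN (background 4.83%). Conversely, 11 members were lowest in RKN (background 5.18%), namely ITGA1, ITGA3, ITGA4, ITGA5, ITGAV, ITGB3, TLN1, LIMS1, FLNA, FLNC and ACTN1. Only LIMS2 was lowest in SKN (background 1.81%), only TNS3 in SKUT1 (background 4.26%) and no member in SKLMS1 (background 1.68%). Of the members highest by this rule, ITGA8 and ITGA10 (SKUT1), ITGB2 (SKN) and ITGB4 and ITGB6 (SKLMS1) reached an FPKM of 1 only in that line. These passed the low-value filter only through the line where they were high, so the counts of highest members are a description. The count of members lowest in RKN was 17 when SKN was left out and 7 with a pseudocount of 5, and that of members highest in SKLMS1 was 4 without SKN and 6 without SKUT1. Without RKN, 4 members were lowest in SKLMS1, 4 in SKN and 3 in SKUT1.

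Receptor chains had wider ranges over the lines than the proteins beneath them. A range of at least 4-fold over the lines was found for 17 of the 20 integrin chains and for 12 of the 21 plaque genes, where 26.7% of all kept genes had one. The median range was 4.17 on the log2 scale for the 18 kept chains, 2.10 for plaque genes and 1.31 for all genes. A gene that passed the low-value filter only through the line where it is high had to differ, so these counts and medians are a description. After rescaling to TPM the counts were 17 chains and 8 plaque genes, where 34.7% of all kept genes had such a range, so the plaque share then lay near the background. Without SKUT1 the counts were 10 chains and 7 plaque genes, beside 16.7% of the genes kept in that setting, and without RKN they were 14 and 7, beside 19.6%.

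**Figure D1:**
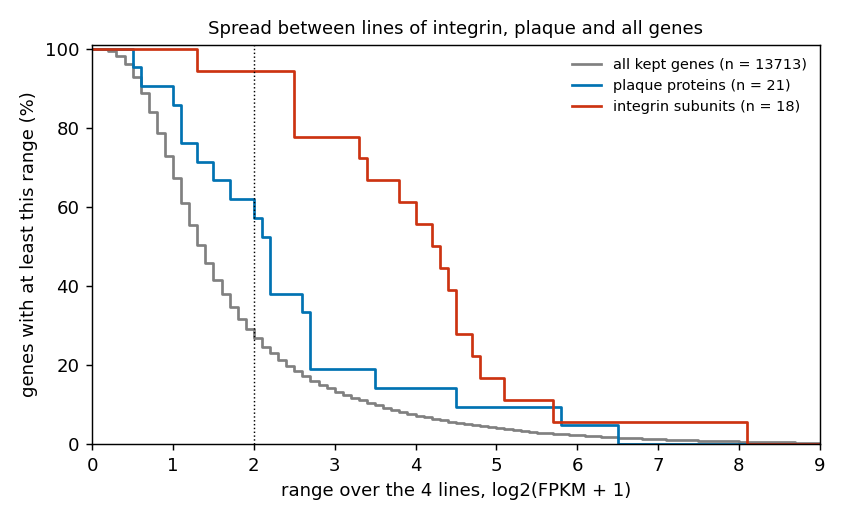
Share of genes (vertical axis, %) whose range over the 4 lines is at least the value on the horizontal axis, on the log2(FPKM + 1) scale, for the 18 kept integrin chains, the 21 plaque genes and 13713 kept genes. The dotted line marks 4-fold; at 4-fold the integrin curve lies above the plaque curve, and both lie above that of all genes.

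Sequences upstream of 6 members are shown, because these genes stand for the patterns described in what follows: ITGA11, ITGA5 and ITGB1 for receptor chains highest in SKUT1, ITGB6 for a chain high in SKLMS1, and FLNA and ACTN1 for actin linkers lowest in RKN. Each run is the 250 bases before a RefSeq transcription start in build GRCh38.p14, written 5′ to 3′ on the gene's own strand. Capitals mark a match to a CArG box, the binding site of SRF, to the M-CAT element CATTCC bound by TEAD factors, or to TATAAA, on either strand. All 3 member windows with a CArG box are among those shown, so the runs are not typical of the members in motif content. ACTN1 has 4 listed starts and ITGB1 has 2; the windows shown are those of these 2 genes with a CArG box or M-CAT match. Of their windows not printed, 1 of ITGB1 held TATAAA, at 102, 100 and 35 bases before its start, and none of ACTN1 held any of these 3 motifs.
ITGA11, chr15:68432164-68432413, minus strand: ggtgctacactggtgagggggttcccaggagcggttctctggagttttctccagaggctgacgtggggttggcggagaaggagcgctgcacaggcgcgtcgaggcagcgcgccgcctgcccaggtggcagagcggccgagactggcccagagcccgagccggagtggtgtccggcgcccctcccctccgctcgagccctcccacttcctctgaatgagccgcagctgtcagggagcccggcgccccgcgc
ITGA5, chr12:54419267-54419516, minus strand: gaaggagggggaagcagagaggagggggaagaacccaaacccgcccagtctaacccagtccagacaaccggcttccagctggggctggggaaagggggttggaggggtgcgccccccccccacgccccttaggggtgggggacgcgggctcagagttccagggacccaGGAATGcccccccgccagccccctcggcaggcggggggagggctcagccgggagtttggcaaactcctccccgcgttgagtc
ITGB1, chr10:32958231-32958480, minus strand: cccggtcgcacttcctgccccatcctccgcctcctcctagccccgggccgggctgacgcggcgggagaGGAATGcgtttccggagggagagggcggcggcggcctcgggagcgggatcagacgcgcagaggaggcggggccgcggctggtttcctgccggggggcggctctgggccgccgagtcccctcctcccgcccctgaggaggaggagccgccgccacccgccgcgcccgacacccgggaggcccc
ITGB6, chr2:160200273-160200522, minus strand: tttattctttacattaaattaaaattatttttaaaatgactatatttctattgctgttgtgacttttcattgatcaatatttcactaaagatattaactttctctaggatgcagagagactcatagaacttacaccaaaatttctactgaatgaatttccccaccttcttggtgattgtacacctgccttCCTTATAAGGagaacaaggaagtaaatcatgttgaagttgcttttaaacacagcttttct
FLNA, chrX:154374635-154374884, minus strand: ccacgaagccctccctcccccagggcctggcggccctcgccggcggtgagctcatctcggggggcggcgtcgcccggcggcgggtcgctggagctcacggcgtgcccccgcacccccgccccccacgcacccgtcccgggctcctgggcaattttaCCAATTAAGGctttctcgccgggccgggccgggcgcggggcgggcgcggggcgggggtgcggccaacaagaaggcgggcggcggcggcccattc
ACTN1, chr14:68977567-68977816, minus strand: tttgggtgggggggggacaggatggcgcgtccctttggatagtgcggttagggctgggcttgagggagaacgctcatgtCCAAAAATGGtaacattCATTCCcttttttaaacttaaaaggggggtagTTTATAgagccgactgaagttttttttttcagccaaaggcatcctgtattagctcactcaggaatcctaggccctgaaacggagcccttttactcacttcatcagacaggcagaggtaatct
The CArG box began 94 bases before the start in FLNA, 171 in ACTN1 and 60 in ITGB6. M-CAT matches began 82 bases before the start in ITGA5, 182 in ITGB1 and 154 in ACTN1, and the ACTN1 window also held TATAAA at 122. No searched motif was found in the ITGA11 window. The ITGB6 window stood out by its base composition, with 30% G and C and no CpG, where FLNA had 78.4% and 35 CpG.

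Upstream windows were found for 31 members, 58 windows in all, and none for FERMT1, ITGA3, ITGA7, ITGA9, ITGB2, ITGB3, ITGB4, PARVA, PTK2 and SRC. A CArG box was in 3 of the 58 windows, those printed for ACTN1, FLNA and ITGB6, and in 1.16% of all 35116 windows of the same length. The M-CAT element was in 9, which belonged to ACTN1, FLNC, ITGA10, ITGA5, ITGB1, PXN, TNS1 and VCL, and in 11.9% of all windows. The AP-1 site TGAGTCA was in 1, of BCAR1, and in 4.20% of all, the GC box GGGCGG in 30 and 42.6%, and TATAAA in 5 and 10.7%. Among the 14434 windows of kept genes, the shares were 1.09% for the CArG box, 9.99% for M-CAT, 3.08% for AP-1, 62.7% for the GC box and 5.94% for TATAAA. The member shares of the GC box (51.7%) and of TATAAA (8.62%) thus lay between those of all windows and those of kept genes. In the printed windows no match overlapped one of another motif. A match is a description of letters and not of binding, and other starts of the same gene count as separate windows. G and C made up a median of 70% of the bases before the starts of members at an FPKM of 10 or more in every line (27 windows) and 62.8% for the other members (31 windows), beside 64.4% for all kept genes.

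Among the collagen-binding alpha chains, ITGA10 and ITGA11 were highest in SKUT1, ITGA2 in SKN and ITGA1 in SKLMS1, with SKUT1 close to it. ITGA11, the fibrillar collagen receptor chain of fibroblasts, was 278 in SKUT1, 2.72 in SKLMS1, 0.655 in SKN and 0.0432 in RKN. Its SKUT1 level was 102 times the next one, and its range of 8.06 on the log2 scale was the widest of all members. ITGA1, which pairs with ITGB1 to bind collagen IV and other collagens in smooth muscle, was 20.4 in SKLMS1, 16.0 in SKUT1, 4.64 in SKN and 0.00645 in RKN. ITGA2, the chain of the collagen receptor of platelets and epithelia, was 26.3 in SKN, 7.88 in SKUT1, 0.0774 in SKLMS1 and 0.0197 in RKN. ITGA10, best known from cartilage, was 4.92 in SKUT1 and at most 0.119 elsewhere. RKN thus had none of the 4 collagen receptor chains above 0.0895. ITGA1 and ITGA2 are near neighbours on chromosome 5, with 1 coding gene start between them in RefSeq, yet the ratio of ITGA1 to ITGA2 was 264 in SKLMS1, 2.03 in SKUT1 and 0.177 in SKN. Exons of PELO overlap those of ITGA1 on the same strand, and PELO ran from 5.76 in RKN to 33.3 in SKUT1.

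Laminin-binding alpha chains set SKN apart. ITGA3, a receptor chain for laminins of basement membranes, was 271 in SKN, 95.8 in SKLMS1, 28.6 in SKUT1 and 10.1 in RKN. ITGA6, which pairs with ITGB1 or ITGB4, was 86.0 in SKN, 16.5 in SKUT1, 0.758 in RKN and 0.746 in SKLMS1. Both were highest in SKN with a gap of more than 2-fold, 1.49 for ITGA3 and 2.31 for ITGA6 on the log2 scale. ITGA7, the laminin receptor chain of muscle, was distributed otherwise, at 15.7 in SKUT1, 7.21 in RKN, 0.160 in SKLMS1 and 0.103 in SKN. Here RKN was the line nearest to SKUT1, while for ITGA3 it was the lowest.

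The RGD-binding alpha chains were all highest in SKUT1. ITGA5, the classical fibronectin receptor chain, was 280.0 in SKUT1, 93.9 in SKN, 52.2 in SKLMS1 and 12.6 in RKN, and ITGAV, which pairs with 5 beta chains, was 143 in SKUT1, 45.4 in SKLMS1, 22.3 in SKN and 6.75 in RKN. These chains were thus present in every line, and each had a gap of more than 2-fold both above the next line and below it. ITGA8, a receptor chain for nephronectin and fibronectin that smooth muscle and other mesenchymal cells make, was 16.4 in SKUT1, 0.0637 in SKLMS1 and 0.0129 in SKN, with RKN listed at 0. ITGA4, a receptor chain for VCAM1 and fibronectin best known from leukocytes, had the order of ITGAV, with 18.1 in SKUT1, 6.17 in SKLMS1, 3.53 in SKN and 0.890 in RKN. Its relative ITGA9 was 0.782 in SKUT1, 0.315 in RKN, 0.0345 in SKLMS1 and listed at 0 in SKN.

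**Figure D2:**
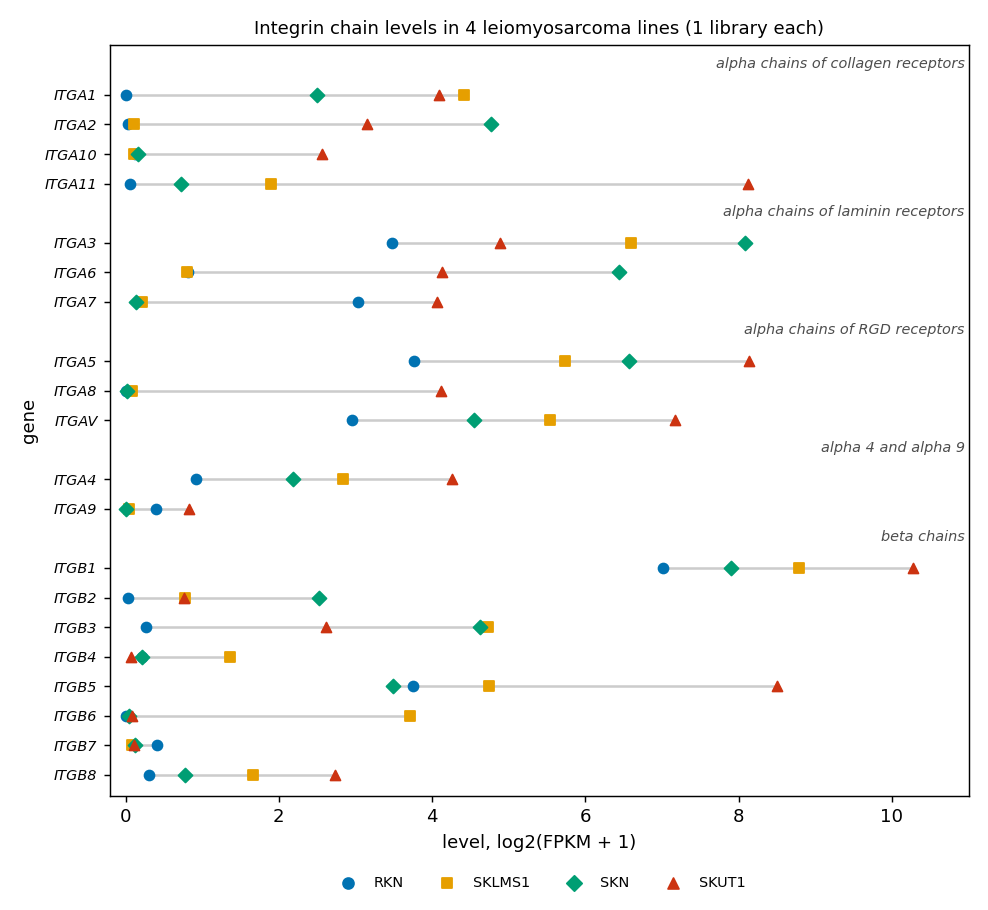
Level of each of the 20 integrin chains in each line on the log2(FPKM + 1) scale, with 1 point per line and a grey bar over the range. SKUT1 points lie farthest right for ITGA11, ITGA5, ITGAV, ITGB1 and ITGB5, SKN points for ITGA3 and ITGA6, and RKN points lie farthest left for 13 of the 18 chains that passed the filter.

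Among beta chains, ITGB1, the common partner of most alpha chains, was the most abundant in every line. It was 1240.2 in SKUT1, 442 in SKLMS1, 237 in SKN and 129 in RKN, and it stood above 96.1 to 99.6% of kept genes. ITGB5, a partner of ITGAV in vitronectin binding, was 360.4 in SKUT1 against 25.9 in SKLMS1, 12.5 in RKN and 10.3 in SKN, so that SKUT1 alone was high. ITGB3, the other main vitronectin receptor chain, was distributed otherwise, at 25.6 in SKLMS1, 23.8 in SKN, 5.15 in SKUT1 and 0.202 in RKN. The ratio of ITGB5 to ITGB3 was accordingly 69.9 in SKUT1, 61.8 in RKN, 1.01 in SKLMS1 and 0.432 in SKN.

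The remaining beta chains were low or limited to single lines. ITGB6, an epithelial chain whose dimer with ITGAV activates latent TGF-beta, was 12.1 in SKLMS1, 0.0559 in SKUT1 and 0.0359 in SKN, with RKN listed at 0. ITGB8, which serves the same purpose with ITGAV in other cells, was 5.67 in SKUT1, 2.18 in SKLMS1, 0.716 in SKN and 0.235 in RKN. ITGB4, the hemidesmosome chain, was 1.57 in SKLMS1 and at most 0.162 elsewhere. The 7 epithelial markers, of which 5 reached an FPKM of 1, summed to 315 in SKLMS1, 549 in SKN, 196 in SKUT1 and 11 in RKN, nearly all of it KRT8 and KRT18, with EPCAM at most 1.80, CDH1 at most 1.20 and KRT5 at most 0.294. Their part in the levels of ITGB6, ITGB4, ITGA3 and ITGA6 was not tested. In the lines with high ITGA6, SKN and SKUT1, ITGB4 was 0.158 and 0.0521. ITGB2, the leukocyte chain, was 4.76 in SKN and at most 0.716 elsewhere. Its partner chains ITGAL and ITGAM were at most 0.0258 and 0.0718 in any line, and ITGAX was 2.20 in SKN, where the leukocyte marker PTPRC was listed at 0 and LCP1, a further marker, was 1.70. The 7 leukocyte markers summed to 78.3 in SKUT1, 24 in SKLMS1, 21.6 in SKN and 17.9 in RKN, most of it CD68, and in RKN CORO1A. LCP1 and ITGAX, like ITGB2, were highest in SKN, and the part of leukocyte transcripts in ITGB2 was not tested. ITGB7 was at most 0.323. Exons of ITGB2-AS1 overlap those of ITGB2 on the opposite strand, the strand setting of the counting is not given in the sources used here, and ITGB2-AS1 was 0.880 in SKN.

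Since a receptor needs both chains, the lower of the alpha and beta levels was taken for each of 24 known heterodimers. This is a statement about mRNA and not about receptors on the surface. Both chains reached an FPKM of 1 for 14 dimers in SKUT1, 10 in SKLMS1, 10 in SKN and 5 in RKN, and an FPKM of 10 for 10, 7, 7 and 2. Of all genes, 11518, 11738, 11474 and 11460 reached an FPKM of 1 in these lines, in the same order. Many of the dimers share ITGB1 or ITGAV, so the dimers are not separate observations. Only 4 dimers had both chains at 1 or more in every line, ITGA3/ITGB1, ITGA5/ITGB1, ITGAV/ITGB1 and ITGAV/ITGB5, and RKN added ITGA7/ITGB1 to these. No line had both chains at 1 for 8 dimers, among them ITGA6/ITGB4 and ITGA9/ITGB1. The leading dimer by this measure was ITGA5/ITGB1 in SKUT1 (280.0) with ITGA11/ITGB1 beside it (278), ITGA3/ITGB1 in SKN (237) and in SKLMS1 (95.8), and ITGA5/ITGB1 in RKN (12.6). With ITGB1 as partner the alpha chain was the lower one throughout, with the exception of ITGA3 in SKN, where the alpha chain at 271 exceeded ITGB1 at 237.

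**Figure D3:**
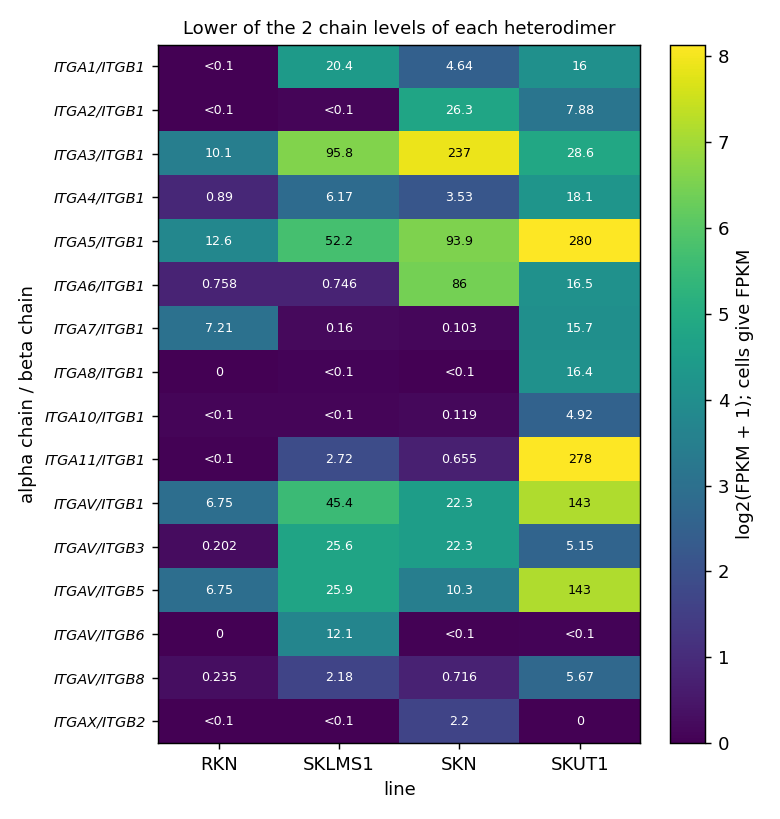
Lower of the alpha and beta chain levels for the heterodimers that reach an FPKM of 1 in at least 1 line; rows are dimers, columns are lines, colour is log2(FPKM + 1) and each cell gives the FPKM. SKUT1 has 14 such dimers and RKN 5, and the collagen receptor dimers of ITGA1, ITGA2, ITGA10 and ITGA11 are all below 0.1 in RKN.

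The supply of alpha chains relative to ITGB1 also differed. The 12 alpha chains, all of which can pair with ITGB1, summed to 826 in SKUT1, 509 in SKN, 224 in SKLMS1 and 38.8 in RKN. The ratio of ITGB1 to that sum fell from 3.32 in RKN over 1.97 in SKLMS1 and 1.50 in SKUT1 to 0.467 in SKN. Thus SKN was the line in which alpha chain mRNA exceeded ITGB1 mRNA. ITGA3 made up 53.3% of the alpha sum in SKN, 42.8% in SKLMS1, 26.1% in RKN and 3.46% in SKUT1. ITGA11 made up 33.7% in SKUT1 and at most 1.22% elsewhere. ITGA5 was more even, at 33.9% in SKUT1, 32.5% in RKN, 23.3% in SKLMS1 and 18.5% in SKN. ITGA7 held 18.6% in RKN, where the sum was small, and 1.91% in SKUT1, although its level was higher in SKUT1.

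**Figure D4:**
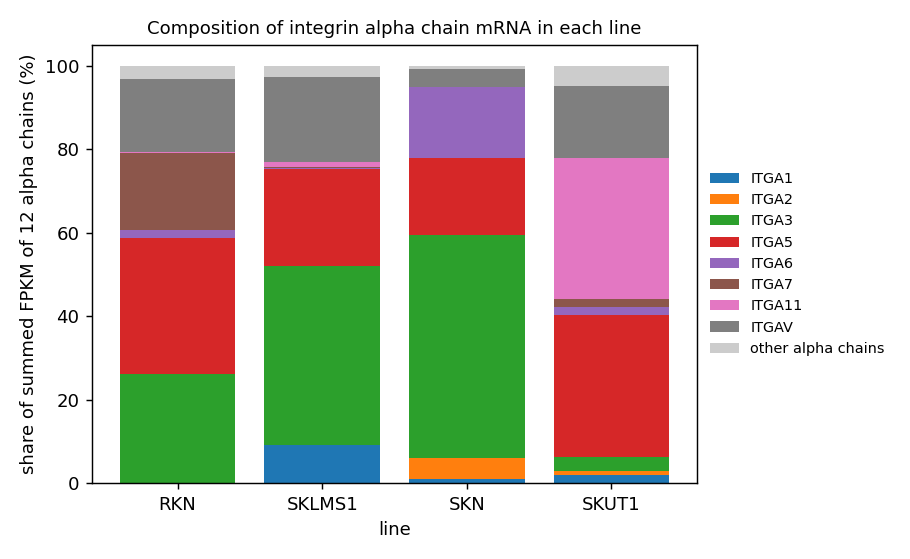
Share of each alpha chain in the summed FPKM of the 12 alpha chains (vertical axis, %) in each line; chains under 5% in every line are joined in grey. ITGA3 is the largest share in SKN (53.3%) and SKLMS1 (42.8%), ITGA5 is the largest in RKN (32.5%), and ITGA5 (33.9%) and ITGA11 (33.7%) share the lead in SKUT1.

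The activators of integrins were led by TLN1 and FERMT2 in every line. TLN1, the main talin, was 136 in SKUT1, 106 in SKN, 72.9 in SKLMS1 and 31.0 in RKN, and only RKN was set off by 2-fold or more. TLN2 was at most 3.78, and TLN1 exceeded it 19.3 to 50.0 times. FERMT2, the kindlin of mesenchymal cells, was 296 in SKUT1, 62.0 in SKLMS1, 42.7 in SKN and 27.0 in RKN, so SKUT1 had 4.77 times the next level. FERMT1, the epithelial kindlin, was 2.56 in RKN, 2.44 in SKUT1, 0.867 in SKN and 0.734 in SKLMS1, and was the only kept member with its highest level in RKN, the highest line for 28.4% of kept genes.

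In the complex of ILK, PINCH and parvin ILK varied little and its exchangeable partners widely, PARVB excepted. ILK, the pseudokinase at its core, was 201 in SKUT1, 130.3 in SKN, 112 in SKLMS1 and 105 in RKN, a range of 0.92 on the log2 scale. LIMS1 (PINCH1) was 67.3 in SKN, 25.7 in SKUT1, 21.8 in SKLMS1 and 9.82 in RKN, whereas LIMS2 (PINCH2) was 90.6 in SKUT1 and 15.0 in SKLMS1, 3.26 in RKN and only 0.0256 in SKN. SKN was thus highest for the first and lowest for the second. LIMS1 exceeded LIMS2 by 3.01 times in RKN and 1.45 times in SKLMS1, while LIMS2 exceeded LIMS1 by 3.53 times in SKUT1. LIMS1 has near-identical copies, which can take its reads, and the copy LIMS3 was listed at 0 in all 4 lines, so the LIMS1 levels are uncertain. PARVA, the widely expressed parvin, was 78.7 in SKUT1 and 11.9 to 12.9 in the other 3 lines, whereas PARVB was 21.8 to 30.3 throughout. PARVB was thus above PARVA in RKN, SKLMS1 and SKN, by 1.70 to 2.56 times, and below it in SKUT1, where PARVA was 2.75 times higher. Exons of TAF10 overlap those of ILK on the opposite strand, and TAF10 ran from 74.9 to 105.

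The kinases and scaffolds were highest in SKN. SRC, the founding tyrosine kinase of its family, was 84.2 in SKN, 17.7 in RKN, 14.4 in SKUT1 and 13.6 in SKLMS1, with SKN 4.75 times above the next line and the other 3 close together. PXN, which recruits signalling proteins to the plaque, was 126 in SKN, 61.6 in SKUT1, 44.2 in SKLMS1 and 27.3 in RKN. PTK2, focal adhesion kinase, varied little, at 43.4 in SKN, 37.8 in SKLMS1, 30.5 in SKUT1 and 20.4 in RKN, and BCAR1 was 38.0 in SKN, 37.2 in SKUT1, 36.2 in SKLMS1 and 25.4 in RKN. The lead of SKN in BCAR1 and PTK2 was 1.02 and 1.15 times the next line, a size that cannot be judged without replicates. Exons of PXN-AS1 overlap those of PXN on the opposite strand, and PXN-AS1 was 0.779 in SKUT1 and 4.62 to 6.90 elsewhere.

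**Figure D5:**
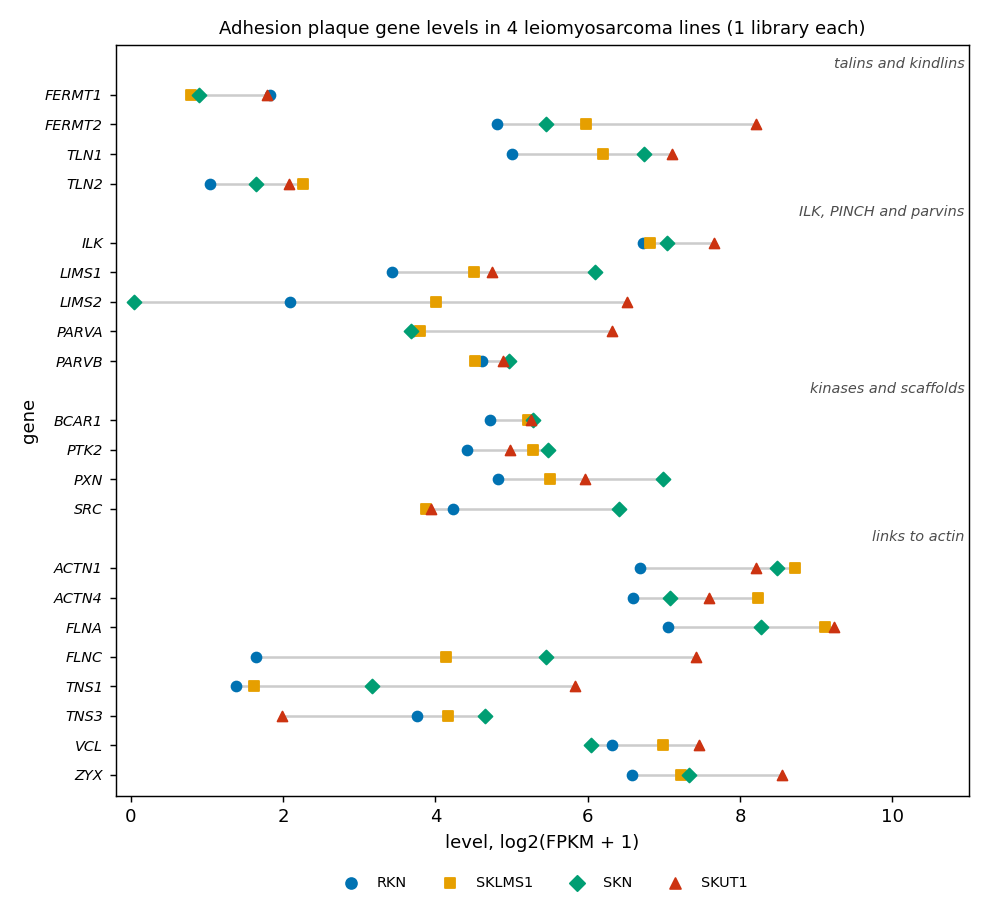
Level of each of the 21 plaque genes in each line on the log2(FPKM + 1) scale, with 1 point per line and a grey bar over the range. LIMS2, FLNC and TNS1 have the longest bars and PARVB and BCAR1 the shortest, SRC and PXN are farthest right in SKN, and TNS3 is farthest left in SKUT1.

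Among the actin linkers, the abundant structural genes ranged less widely than FLNC. On the log2 scale the range was 2.19 for FLNA and 2.03 for ACTN1, both above 4-fold, and 5.77 for FLNC. FLNA, the common filamin, was 602 in SKUT1, 554 in SKLMS1, 308 in SKN and 131 in RKN, and ACTN1, the widespread alpha-actinin with the CArG box shown above, was 421 in SKLMS1, 356 in SKN, 296 in SKUT1 and 102 in RKN. For both genes RKN was the low line and the other 3 lay within 2-fold of each other. ACTN4 was 300 in SKLMS1, 192 in SKUT1, 134 in SKN and 95.6 in RKN. VCL, vinculin, was 175 in SKUT1 and 126 in SKLMS1, with 78.9 in RKN and 64.8 in SKN. ZYX, zyxin, was 373 in SKUT1, 159 in SKN, 148 in SKLMS1 and 94.8 in RKN. ZYX was the linker of this abundant group with SKUT1 more than 2-fold above the next line. FLNC, the filamin of muscle, was 170.2 in SKUT1, 42.7 in SKN, 16.6 in SKLMS1 and 2.14 in RKN, so FLNA exceeded it 61.5 times in RKN and 3.53 times in SKUT1.

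The tensins, which bind beta tails and actin at fibrillar adhesions, were exchanged between lines. TNS1 was 56.2 in SKUT1, 7.96 in SKN, 2.06 in SKLMS1 and 1.61 in RKN. TNS3 was 24.1 in SKN, 17.0 in SKLMS1, 12.5 in RKN and 2.97 in SKUT1, and was the only member lowest in SKUT1 with a gap of at least 2-fold. The ratio of TNS1 to TNS3 was 18.9 in SKUT1 and 0.121 to 0.330 in the other lines.

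The order of the lines was shared by groups of members. ITGA4, ITGA8, ITGA11, ITGAV, ITGB1, ITGB8, FERMT2 and FLNA all fell from SKUT1 through SKLMS1 and SKN to RKN, an order held by 6.61% of all kept genes. ITGA5, TLN1, ZYX, ILK, TNS1 and FLNC differed from these only in having SKN above SKLMS1, an order of 6.20% of kept genes. With 1 library per line, neighbours in such an order that are close in level, as ITGB3 in SKLMS1 and SKN or FLNA in SKUT1 and SKLMS1, cannot be told apart. Nor can the order of ITGA8 below SKUT1, at 0.0637 in SKLMS1, 0.0129 in SKN and a listed 0 in RKN.

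Further genes of the plaque came from a list of 44 that holds none of the 41 members and was chosen with earlier results of these data known. Of 39 that passed the filter, 9 were highest in SKUT1 by at least 2-fold and 7 lowest in RKN, beside the backgrounds of 9.96% and 5.18%. A 4-fold range was found for 20 (background 26.7%). A gene that passed the filter only through its highest line had to be highest there, so these counts are a description and no independent check of the members. PALLD, palladin of actin bundles, was 183 in SKUT1, 43.1 in SKLMS1, 9.83 in SKN and 1.85 in RKN, and PDLIM5, a PDZ and LIM protein, was 155 in SKUT1, 18.9 in SKLMS1, 14.7 in SKN and 0.370 in RKN. TRIP6, a zyxin relative, was 0.901 in RKN against 45.4 to 79.5 elsewhere, and PDLIM1 was 2.85 against 25.7 to 97.1. SORBS2 (19.8 in SKUT1) and APBB1IP, the RAP1 effector RIAM that brings talin to integrins (24.4 in SKUT1), were listed at 0 in RKN. Of 7 further integrin-related genes 3 passed the filter. ITGAE was 6.20 to 7.84 in all lines, with its partner ITGB7 at most 0.323, and ITGBL1, a secreted protein with beta-chain repeats, was 272 in SKUT1, 6.06 in SKN and 0.413 in SKLMS1, with RKN listed at 0.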

How the data were processed

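Poly(A) libraries of 4 lines, 1 each, were read as single-end reads of 75 bp, per the labels' protocols. The values are FPKM made by the authors; STAR, Cufflinks and hg19 appear, unversioned, in the submitters' processing notes. The sources used here do not state the annotation, the strand setting or any filter. Of 23610 rows, 28 with a symbol turned into a date number and 5 with spreadsheet errors were left out. Members and lists were chosen with earlier results of these data known. No test was possible. Values were compared as log2(FPKM + 1) among genes that reached an FPKM of 1 in any line, and counted at a 4-fold range over the lines or a 2-fold gap to the next line.

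All 41 members are named; of other lists, the 6 genes with the widest range among those reaching an FPKM of 10 in any line were eligible, and ITGAE, ITGAL, ITGAM, ITGAX, KDR and low markers were named after their values were seen. Of 122 other list genes 121 were found; the values of a marker gene among them are not reported here. Read totals were estimated from the most frequent value of 1 read among genes with a single transcript in GENCODE 29, assuming fragments of 200 bases; 61.8 to 64.0% of low values then lay within 0.1 of a whole read, and as the unit was fitted to them this does not check the totals. Upstream sequences and gene order came from RefSeq (GRCh38.p14), exon overlaps from GENCODE 29. The counting code was tested on simulated data. Alternatives were other pseudocounts, TPM, median-of-ratios and quantile scaling, other filters, doubled size rules and leaving out each line. Python 3.11.15 with pandas 2.3.3, numpy 2.4.6 and matplotlib 3.10.9 was used.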

Additional observations from a re-analysis of the deposited data

How the results depend on the processing

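Of 112 values of the counts under the alternatives, 90 stayed within 1.5 times the reported count. TPM, median-of-ratios and quantile scaling, a pseudocount of 0.1 and no filter moved none of the counts by more. A pseudocount of 5 gave 7 members lowest in RKN, 1 highest in SKLMS1 and 0 lowest in SKN, and a minimum FPKM of 5 gave 1 highest in SKLMS1. With the size rules doubled, 4 plaque genes had an 8-fold range, and at a 4-fold gap 3 members were lowest in RKN, 1 highest in SKLMS1, 2 highest in SKN, 8 highest in SKUT1 and 0 lowest in SKUT1, as a stricter rule must give fewer. Leaving out each line in turn gave 10 to 16 chains and 7 to 11 plaque genes with a 4-fold range. Members highest in RKN numbered 0 to 1, in SKLMS1 2 to 6, in SKN 7 to 9 and in SKUT1 16 to 18, and members lowest in RKN 11 to 17, in SKLMS1 0 to 4, in SKN 1 to 4 and in SKUT1 1 to 3. Of 44 values of the median differences under the alternatives, 4 moved across the 2-fold size, among them SKUT1 with 0.83 at a pseudocount of 5. There were 81 differences of a member from the other lines of at least 2-fold. Of their 880 values under the alternatives, 814 stayed at 2-fold or more and 62 fell below it. The other 4 changed sign when a line was left out. On the log2 scale these were FLNC in SKN (-0.33 without RKN, up to 2.55 without SKUT1), LIMS2 in SKLMS1 (-0.302 without SKN, up to 2.94 without SKUT1), LIMS2 in RKN (0.0722 without SKUT1, down to -3.17 without SKN) and ITGA11 in SKLMS1 (1.50 without SKUT1, down to -2.53 without RKN). No paired analysis was possible because each line has 1 library. Depth limits values under about 0.01 on a 5 kb transcript, which rest on 1 or a few reads. On a 2 kb transcript a single read gave up to 0.0228, and the LIMS2 level of 0.0256 in SKN lies near that.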

Other observations

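Ligands of the integrins also differed widely between lines. Of 25 ligand genes, 23 passed the filter and 18 had a range of at least 4-fold (26.7% of all kept genes), with a median range of 5.71 on the log2 scale. Of the 23, 10 were highest in SKUT1 by at least 2-fold (9.96% of all kept genes), 4 in SKLMS1 (3.95%), 4 in SKN (3.75%) and 1 in RKN (4.83%), and 7 were lowest in RKN (5.18%), 2 in SKN (1.81%) and 1 in SKLMS1 (1.68%). Some ligands passed the low-value filter only through their highest line and had to be highest there. The list was also chosen with earlier results of these data known, so the counts and the median range are a description. THBS1, thrombospondin, was 2534 in SKUT1, 137 in SKLMS1, 19.6 in SKN and 7.50 in RKN, and FBN1, an RGD-bearing fibrillin, was 730 in SKUT1, 18.4 in SKLMS1, 17.6 in SKN and 0.353 in RKN. FN1, the ligand of ITGA5/ITGB1, was 2960 in SKN, 651 in SKLMS1, 0.266 in RKN and listed at 0 in SKUT1, the line with the highest ITGA5, and that 0 can be a failed estimate. In RKN, COL1A2 was 98.3 and COL3A1 80.6, while no collagen receptor chain exceeded 0.0895.

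Of 17 genes for partners and regulators of integrins, at the membrane or elsewhere in the cell, 16 passed the filter. By at least 2-fold, 4 were highest in SKUT1 (9.96% of all kept genes) and 1 in SKN (3.75%), while 2 were lowest in RKN (5.18%), 2 in SKLMS1 (1.68%) and 1 in SKUT1 (4.26%). The tetraspanin CD151, which associates with laminin-binding integrins, was 777 in SKUT1, 311 in SKLMS1, 253 in SKN and 86.7 in RKN. CD82 was 52.7 in SKN and at most 9.24 elsewhere. CD9 was 177 in SKUT1, 142 in SKN, 53.7 in RKN and 5.01 in SKLMS1, and the urokinase receptor gene PLAUR, whose product binds integrins laterally, was 77.1 in SKN, 72.8 in SKUT1, 23.9 in RKN and 3.25 in SKLMS1.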
